A study of Sus scrofa with 4 samples.

Results

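The nuclear genes of oxidative phosphorylation were described by complex in 4 RNA libraries of genetically modified pig kidney. They were taken by gene symbol: NDUFA, NDUFB, NDUFC, NDUFS and NDUFV genes with a number, SDHA to SDHD, symbols beginning with UQCR or ATP5, and COX4 to COX8 followed by letters. Of 69 symbols with such a name, 67 had at least 10 counts in 1 or more libraries, out of 18168 genes that passed the same minimum. The symbols below it were NDUFA4L2, with 8, 2, 5 and 3 counts in the order of libraries used below, and COX8H, with none. For COX8H the limit that a count of 0 allows is 3 counts, or 0.218, 0.242, 0.237 and 0.29 scaled CPM (defined below). The member just inside the minimum was SDHD, with 65, 27, 94 and 67 counts.

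Each of the 4 groups held 1 library. Kidneys of the first genotype, GalT-/-;hCD39;hCD55 (CD39/CD55 below), lacked the galactosyltransferase that makes the alpha-Gal antigen and carried human CD39 and CD55; kidneys of the second, GalT-/-;hCD39;hCD46;hCD55;TBM, also carried human CD46 and thrombomodulin and are called CD46/TBM below, after these 2 additions. In each genotype an untransplanted kidney was set against one transplanted into a non-human primate. The graft was sampled after 4 weeks in CD39/CD55 and 6 weeks in CD46/TBM. The deletion of GalT and the CD39 and CD55 transgenes are shared by all 4 groups, so no library comes from an unmodified kidney. The labels name no promoter of the transgenes, no age and no number of animals. Genotype, weeks after transplantation and recipient cannot be told apart among the transplanted kidneys.

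Oxidative phosphorylation makes most of the ATP of kidney tubules, which spend it on sodium transport. Complex I (NADH dehydrogenase) and complex II (succinate dehydrogenase) pass electrons to ubiquinone, complex III passes them to cytochrome c and complex IV (cytochrome c oxidase) to oxygen, and complex V (ATP synthase) uses the proton gradient made by complexes I, III and IV. All but complex II also contain subunits encoded by mitochondrial DNA, so their assembly draws on both genomes. Within the kidney, proximal tubule and thick ascending limb cells are especially rich in mitochondria. The 67 genes comprised 36 of complex I, 4 of complex II, 2 of complex III, 8 of complex IV and 15 of complex V. Another 2, ATP5S and ATP5SL, are named after ATP synthase but are not subunits of it. NDUFA4 was placed in complex IV, where it is now assigned. The files use older symbols, such as ATP5A1 and ATP5B for the alpha and beta subunits of ATP synthase.

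Libraries summed to between 10346863 and 14092905 counts. The ribosomal RNA loci took 10.8%, 22.4%, 12.6% and 18.9% of them, in the order untransplanted CD39/CD55, transplanted CD39/CD55, untransplanted CD46/TBM and transplanted CD46/TBM, and this order holds wherever 4 values are given. Thus both transplanted kidneys had the larger ribosomal share. The 13 mitochondrially encoded genes took 10.63%, 4.23%, 15.004% and 12.64%. Levels are given as CPM after TMM scaling (scaled CPM), that is, counts divided by the TMM-scaled library total; the counts are not corrected for transcript length, so genes are compared between libraries and not with each other. A difference between 2 libraries is a log2 ratio with an exact 95% interval that covers counting error only. A gene is called higher or lower where that ratio is at least 2-fold and the interval excludes no change. Such calls compare libraries and have no replicate check.

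Both transplanted kidneys held fewer counts of these genes than both untransplanted ones. Together the 67 genes took 1.56%, 0.850%, 1.10% and 0.625% of all counts, with exact (Clopper-Pearson) 95% intervals of 1.557% to 1.570%, 0.844% to 0.855%, 1.096% to 1.107% and 0.621% to 0.630%. With ribosomal RNA loci and mitochondrially encoded genes left out of the total, the shares were 1.99%, 1.16%, 1.52% and 0.914%, in the same order of libraries. The median log2 ratio of transplanted to untransplanted kidney was -1.04 in CD39/CD55, a 2.05-fold lower level, against 0.02 over all genes tested. In CD46/TBM it was -0.85, a 1.798-fold lower level, against 0.01 over all genes. Scaling on totals without those 2 classes of gene left the medians at -1.04 and -0.85. In bulk tissue, fewer cells of a type and less RNA per cell cannot be told apart.

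In CD39/CD55, 35 of the 67 genes were called lower in the transplanted kidney and 0 higher, where 13.7% of all genes were called lower and 13.2% higher. In CD46/TBM, 25 were called lower and 0 higher, where the background was 16.3% and 15.9%. The call was lower in both genotypes for 19 genes, against 7.63% of all genes. The ratio was below 0 for 63 of 67 in CD39/CD55 (48.8% of all genes), for 65 in CD46/TBM (49.6%) and for 62 in both genotypes, against 34.5% of all genes. Both transplanted libraries lay below both untransplanted ones in 53 members, against 25.5% of all genes. The remaining 14, whose libraries overlapped between the states, were ATP5G1, ATP5G2, COX5B, COX6C, NDUFA7, NDUFA10, NDUFA11, NDUFB7, NDUFB9, NDUFB10, NDUFS4, NDUFS7, NDUFS8 and SDHD.

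**Figure D1:**
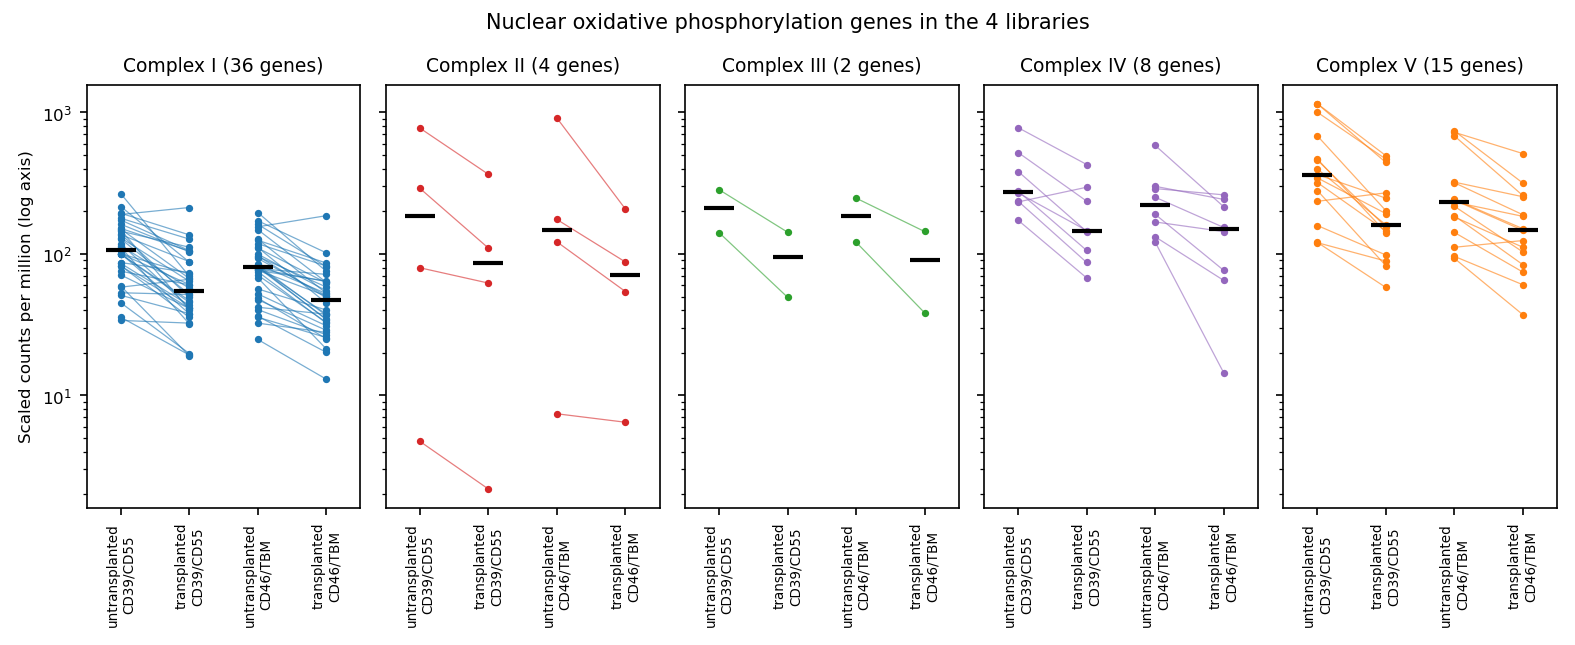
Scaled CPM (log axis) of the genes of each complex in each of the 4 libraries; points are genes, thin lines join the libraries of a genotype and black bars are medians. ATP5S and ATP5SL, which belong to no complex, are not drawn. The medians of the transplanted libraries lie below those of the untransplanted libraries in each complex.

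Tested over both genotypes, 2 libraries against 2, none of the 67 genes passed edgeR's quasi-likelihood test at an adjusted p under 0.05 (Benjamini-Hochberg over 18168 genes). In the same test, 225 of all genes rose (1.24%) and 493 fell (2.71%). At an unadjusted p under 0.05, 34 of the 67 were lower and 0 higher, against 10.7% and 8.99% of all genes. The median log2 fold change of the 67 was -0.95, against 0.03 over all genes. The count that passed depended on the fit: with genotype as a block it was 29, all lower, against 9.25% of all genes, with DESeq2's Wald test 14 (4.73% of all genes were lower), without a filter on low counts 9 (4.48%) and with limma voom 1, UQCR10 (2.45%). With 1 library left out it was 6 without transplanted CD39/CD55 (7.58%), 3 without untransplanted CD46/TBM (3.37%), 1 without transplanted CD46/TBM (2.2%) and 0 without untransplanted CD39/CD55 (2.31%). No member was higher past the threshold under any of them.

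The sizes of the changes differed among members. Over the 67 genes the SD of the log2 ratios was 0.54 in either genotype, and the middle of the distribution (first to last quartile) ran from -1.36 to -0.59 in CD39/CD55 and from -1.21 to -0.53 in CD46/TBM. Across the 67 genes the ratios of both genotypes, which share no library, correlated with Pearson r = 0.37 and Spearman rho = 0.37. Over all 18168 genes these were 0.56 and 0.55. Both are descriptions across genes, which are not independent replicates.

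**Figure D2:**
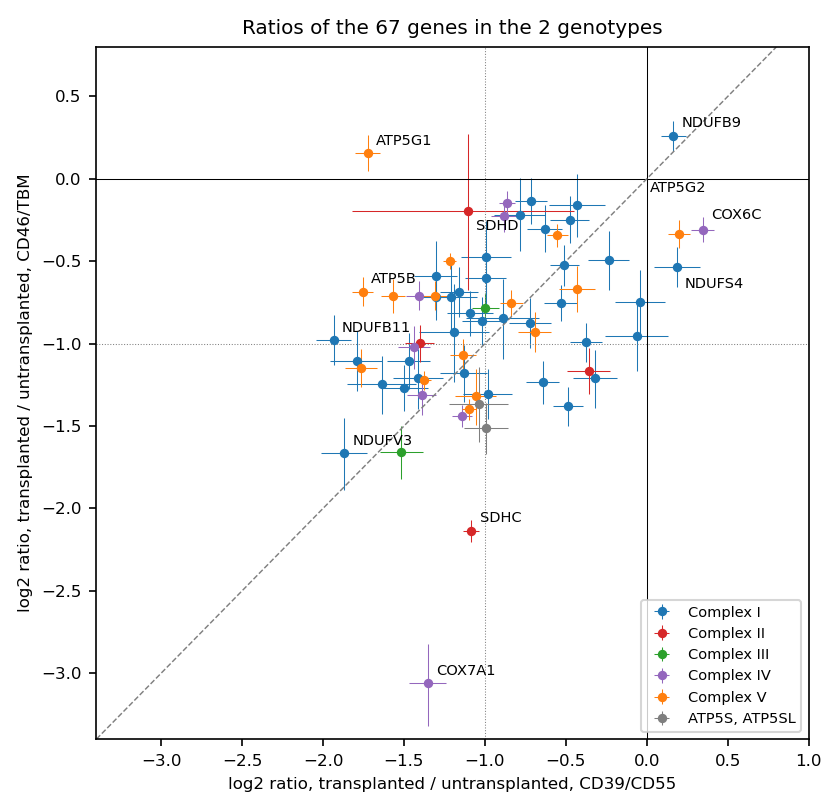
Log2 ratio of transplanted to untransplanted kidney in CD39/CD55 (horizontal axis) and CD46/TBM (vertical axis); each point is 1 of the 67 genes, coloured by complex, with 95% counting intervals. Dotted lines mark a 2-fold lower level and the dashed line equal ratios. The lower left quadrant holds 62 of the 67 genes, and COX7A1 and ATP5G1 lie farthest from the dashed line.

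Complex I, which oxidises NADH, had 36 measured members, and the median ratio of transplanted to untransplanted kidney was -0.94 in CD39/CD55 and -0.83 in CD46/TBM. In CD39/CD55, 15 of the 36 were called lower, and in CD46/TBM 11. For this and the complexes below, the shares of all genes called lower were 13.7% and 16.3%. None of the 36 passed the test over both genotypes. At an unadjusted p under 0.05 in that edgeR test 16 were lower, against 10.7% of all genes. By part of the complex, in CD39/CD55 and then CD46/TBM, the medians were -0.43 and -0.87 in the 10 genes of the module that takes electrons from NADH. They were -0.72 and -0.81 in the 5 genes of the quinone module and -0.99 and -0.85 in the 20 genes of the membrane arm. The 1 remaining gene, placed at the junction of the complex, had ratios of -1.21 and -0.72.

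The 7 core subunits encoded in the nucleus carry the flavin and the iron-sulfur clusters. Their medians were -0.63 and -0.75, against -0.99 and -0.85 in the 29 supernumerary subunits, and the difference was not tested. NDUFS3, a core subunit of the quinone module, had 111, 32.1, 70.8 and 32.9 scaled CPM. Both transplanted kidneys lay below both untransplanted ones, at about one level, and the log2 fold change over both genotypes was -1.49 ± 0.42 (SE; edgeR adjusted p = 0.0699). NDUFS1, the large iron-sulfur subunit, had 118, 41.7, 127 and 52.8 scaled CPM. Here too the states did not overlap, with ratios of -1.50 in CD39/CD55 and -1.27 in CD46/TBM (edgeR adjusted p = 0.0851 over both genotypes).

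NDUFV1, which binds NADH and the flavin, had 53.2, 51.7, 52.2 and 31.1 scaled CPM. Its ratio in CD39/CD55, -0.04 (-0.20 to 0.11), included no change, and only the transplanted CD46/TBM kidney stood lower. NDUFV2, an iron-sulfur subunit beside it, had 100.4, 72.2, 76.4 and 64.4 scaled CPM, with ratios of -0.48 and -0.25. NDUFS7 and NDUFS8, which carry the last iron-sulfur clusters before ubiquinone, were high in 1 library each time. NDUFS7 had 174, 106, 78.8 and 71.8 scaled CPM, and NDUFS8 had 137, 88.3, 78.7 and 63.8. In both genes the untransplanted CD39/CD55 kidney was highest and the transplanted CD39/CD55 kidney lay above the untransplanted CD46/TBM kidney.

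Among the 29 supernumerary subunits, NDUFV3 had the most negative fold change of complex I over both genotypes. It had 147, 40.4, 67.8 and 21.3 scaled CPM, a ratio of -1.87 (-2.01 to -1.73) in CD39/CD55 and -1.67 (-1.89 to -1.45) in CD46/TBM. Its log2 fold change was -1.80 ± 0.50 (SE) with an edgeR adjusted p of 0.0651. NDUFB9, in the membrane arm, stood at the other end with 190, 213, 156 and 186 scaled CPM. It was the 1 member of the 67 with a higher count level in the transplanted kidney of both genotypes, by 0.16 (0.09 to 0.24) and 0.26 (0.17 to 0.35) on the log2 scale, and its edgeR adjusted p was 0.824. NDUFS4, an accessory subunit of the electron input module chosen after its values were seen, had 58.3, 66.2, 125 and 86.3 scaled CPM. Its ratio was above 0 in CD39/CD55, at 0.18, and below 0 in CD46/TBM, at -0.53.

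Complex II oxidises succinate in the citric acid cycle and is encoded wholly in the nucleus. Its 4 genes had median ratios of -1.09 in CD39/CD55 and -1.08 in CD46/TBM, with 3 and 2 called lower. SDHA, the flavoprotein, had 290, 110, 175 and 87.8 scaled CPM, and SDHB, the iron-sulfur protein, had 79.8, 62.3, 122 and 54.3. SDHA was 2.64-fold and 2.00-fold lower in the transplanted kidney, and SDHB 1.28-fold and 2.24-fold, in CD39/CD55 and CD46/TBM.

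SDHC, a membrane anchor, had 774, 365, 913 and 208 scaled CPM. Its ratio was -1.08 (-1.14 to -1.03) in CD39/CD55, where SDHA and SDHD were more negative, and -2.14 (-2.20 to -2.07) in CD46/TBM. Over both genotypes it had the most negative fold change of complex II, -1.56, with an edgeR adjusted p of 0.105. The ratio in CD46/TBM was lower by 1.05 on the log2 scale (counting interval 0.97 to 1.14), past the 2-fold rule for a difference between genotypes. SDHD, the other anchor, had 4.73, 2.18, 7.42 and 6.47 scaled CPM, on the fewest counts of any member. Its ratio in CD46/TBM, -0.20 (-0.67 to 0.27), included no change.

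Complex III was represented by UQCR10 and UQCRB, both small supernumerary subunits; its other nuclear subunits, including the core ones, were not analysed here. UQCR10 had 141, 49.4, 121 and 38.4 scaled CPM, with both transplanted kidneys well below both untransplanted ones. Its ratios were -1.52 (-1.65 to -1.39) in CD39/CD55 and -1.66 (-1.82 to -1.50) in CD46/TBM. UQCR10 had the smallest edgeR adjusted p of the 67 genes, 0.0547, at a log2 fold change of -1.58 ± 0.42 (SE), and over the 11 alternatives that p ran from 0.0014 to 0.230. UQCRB had 285, 143, 248 and 144 scaled CPM, with ratios of -0.997 and -0.784 and an edgeR adjusted p of 0.271.

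**Figure D3:**
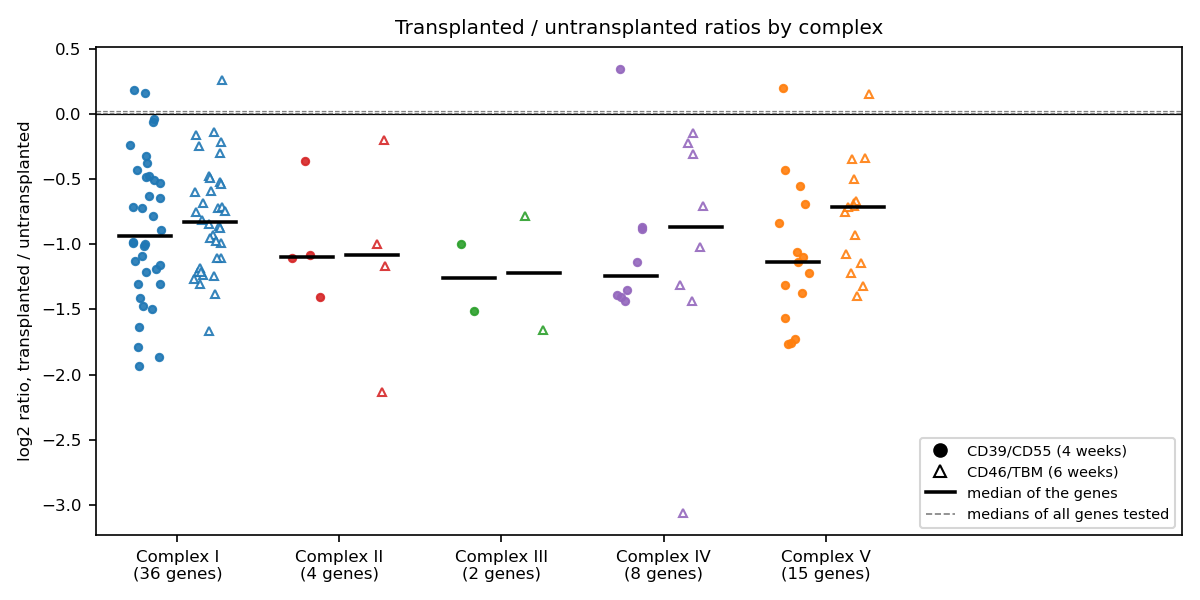
Log2 ratio of transplanted to untransplanted kidney for the 65 genes of complexes I to V, by complex and genotype; points are genes, black bars are their medians and dashed lines are the medians of all genes tested. The medians of the complexes lie between -1.26 and -0.71.

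Complex IV was represented by 8 nuclear genes, not by all of its subunits, with median ratios of -1.25 in CD39/CD55 and -0.87 in CD46/TBM and 5 and 4 genes called lower. COX6A1, the widely expressed isoform of subunit VIa, had 278, 106, 191 and 76.7 scaled CPM, 2.62-fold and 2.48-fold lower after transplantation. NDUFA4 had 382, 144, 252 and 154 scaled CPM, 2.65-fold and 1.63-fold lower. COX6C, another nuclear subunit, had 233, 296, 301 and 243 scaled CPM, with a ratio of 0.34 (0.28 to 0.41) in CD39/CD55 and -0.31 (-0.38 to -0.24) in CD46/TBM. COX6C lies within the interval of VPS13B, a far longer gene, which had 2979, 3774, 3344 and 3135 raw counts against 3206, 3669, 3808 and 2516 for COX6C.

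COX7A1 is the isoform of subunit VIIa typical of heart and skeletal muscle, and COX7A2 is the widely expressed one. COX7A1 had 173, 67.7, 121 and 14.5 scaled CPM, and the transplanted CD46/TBM kidney stood lowest by far. Its ratio was -1.35 (-1.47 to -1.24) in CD39/CD55 and -3.06 (-3.32 to -2.82) in CD46/TBM, the most negative of any member in any genotype, with an edgeR adjusted p of 0.115 over both. The ratios differed by -1.71 (counting interval -1.98 to -1.44). COX7A2 had 236, 87.1, 132 and 65.1 scaled CPM, with ratios of -1.44 and -1.02. COX7A1 accordingly held 42.3%, 43.7%, 47.8% and 18.2% of the counts of both isoforms. Of 8 striated muscle markers (CKM, ACTA1 and others), 1 reached the minimum count, CKM, with 16, 2, 7 and 2 counts. The 12 pericyte and smooth muscle markers summed to 311, 238, 228 and 259 scaled CPM, and their part in the COX7A1 values was not tested.

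Complex V, ATP synthase, held 45.3%, 41.0%, 39.4% and 41.8% of the counts of the 67 genes. Its 15 members had median ratios of -1.14 in CD39/CD55, with 10 called lower, and -0.71 in CD46/TBM, with 5 called lower. The 5 genes of the catalytic head and central stalk had medians of -1.10 and -1.07. ATP5A1, the alpha subunit, had 320, 145, 217 and 103 scaled CPM, 2.20-fold and 2.10-fold lower in the transplanted kidneys. ATP5B, the catalytic beta subunit, had 683, 202, 243 and 151 scaled CPM, so the untransplanted CD39/CD55 kidney stood far above the other libraries. Its ratios were -1.76 and -0.69, a difference of 1.07 (counting interval 0.96 to 1.18).

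The 4 genes of the peripheral stalk had medians of -0.70 and -0.71. ATP5F1, which encodes the b subunit of that stalk, had the most negative fold change of complex V over both genotypes, at 281, 82.6, 186 and 84.1 scaled CPM. Both transplanted kidneys lay at nearly the same level, 3.40-fold and 2.21-fold below the untransplanted kidney of their genotype, with an edgeR adjusted p of 0.0835. The 3 membrane subunits e, f and g (ATP5I, ATP5J2 and ATP5L) had medians of -1.38 and -0.71.

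Subunit c, which forms the rotating ring of ATP synthase, is encoded by ATP5G1, ATP5G2 and ATP5G3, whose mature proteins are identical. ATP5G1 had 468, 142, 112 and 124 scaled CPM. The untransplanted CD39/CD55 kidney alone stood high, and the other 3 libraries lay within 112 to 142. The ratio was therefore -1.72 (-1.80 to -1.65) in CD39/CD55 and 0.16 (0.05 to 0.27) in CD46/TBM, and their difference, 1.88 (counting interval 1.75 to 2.02), was the largest among the 67 genes. ATP5G2 had 236, 270, 233 and 185 scaled CPM, with ratios of 0.20 (0.13 to 0.27) and -0.33 (-0.42 to -0.25), and was the complex V member closest to no change over both genotypes. ATP5G3 had 1152, 495, 725 and 513 scaled CPM, with ratios of -1.22 and -0.50. Of the counts of the 3 genes, ATP5G1 held 25.2%, 15.6%, 10.4% and 15.1%, and ATP5G2 held 12.7%, 29.8%, 21.8% and 22.5%. ATP5G2 thus took its largest share in the transplanted CD39/CD55 kidney. Reads shared by genes of similar sequence may have been split between them, and the sources used here do not say how the counting treated them.

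**Figure D4:**
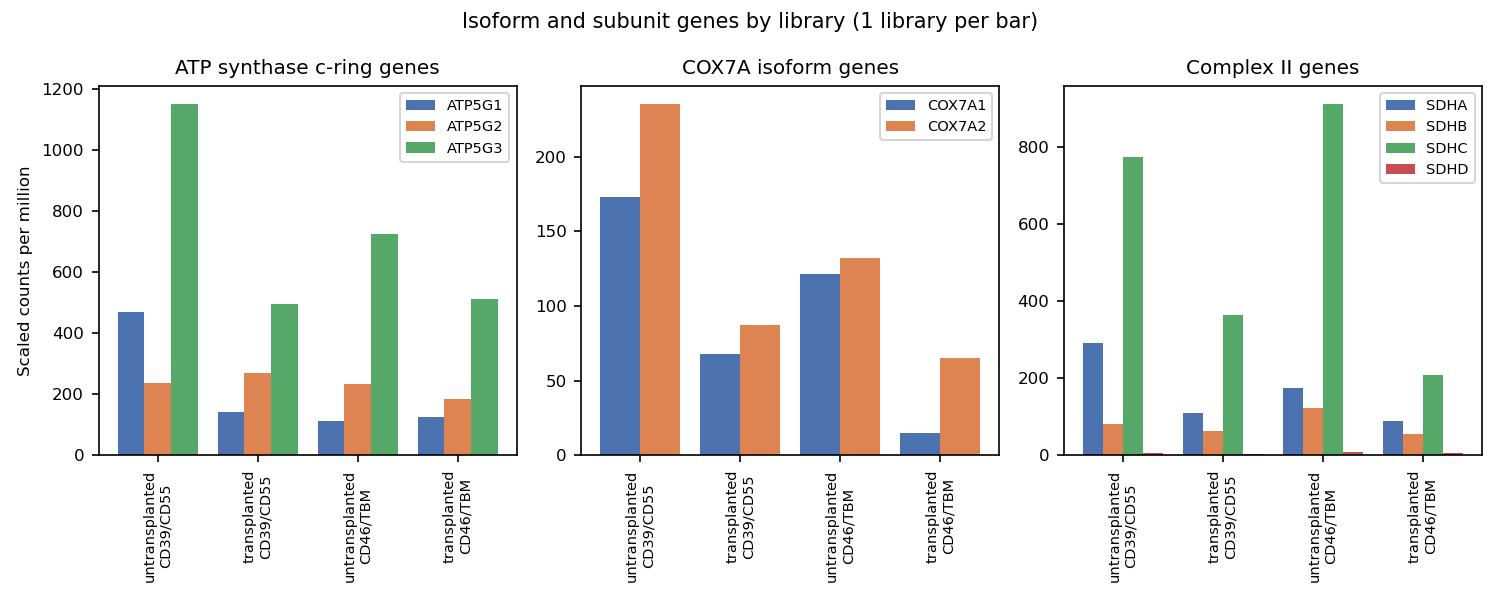
Scaled CPM of the subunit c genes of ATP synthase, the subunit VIIa genes of cytochrome c oxidase and the succinate dehydrogenase genes in each of the 4 libraries; each bar is 1 gene in 1 library, with no error. ATP5G1 is high in the untransplanted CD39/CD55 kidney alone (468), and COX7A1 is lowest in the transplanted CD46/TBM kidney (14.5).

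The difference between the genotypes was set out in either state. In untransplanted kidney, 11 of the 67 genes were called lower in CD46/TBM than in CD39/CD55 and 1 higher, where 7.89% of all genes were called lower and 8.16% higher. The median ratio was -0.39, and 50 of the 67 lay below 0, against 49.6% of all genes. The genes called lower were ATP5B, ATP5G1, ATP5J2, COX5B, NDUFA10, NDUFA11, NDUFB7, NDUFB8, NDUFB11, NDUFS7 and NDUFV3, and the gene called higher was NDUFS4. ATP5G1 had a log2 ratio of -2.07 (-2.16 to -1.99). NDUFA10, a supernumerary subunit of complex I chosen after its values were seen, was 3.16-fold lower, with 128, 51.8, 40.4 and 26.8 scaled CPM. COX5B, a complex IV subunit chosen in the same way, was 2.69-fold lower, with 780, 429, 290 and 262 scaled CPM. By complex, the medians were -0.39, 0.42, -0.21, -0.57 and -0.56 for complexes I to V, so complex II was the one with a median above 0. These ratios share the untransplanted libraries with the transplantation ratios above, so they are not separate evidence.

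In transplanted kidney, 1 gene was called lower in CD46/TBM and 1 higher, where the background was 11.0% in either direction. These were COX7A1, 4.66-fold lower with a log2 ratio of -2.22 (-2.48 to -1.97), and SDHD, 2.93-fold higher with a log2 ratio of 1.55 (0.90 to 2.27) on 27 and 67 counts. The median ratio was -0.36, and 54 of the 67 lay below 0, against 49.9% of all genes. Tested over both states, 0 of the 67 genes and 0 of all 18168 passed edgeR's quasi-likelihood test for genotype. At an unadjusted p under 0.05, 1 member was lower, NDUFA10, against 1.43% of all genes lower and 1.05% higher. DESeq2's Wald test and limma voom passed 0 members, and a fit with state as a block passed 1, NDUFA10. Without the untransplanted CD39/CD55 library the median fold change of -0.37 became 0.15. That fit leaves CD39/CD55 its transplanted kidney alone, so state and genotype are mixed in it. The median of -0.36 in transplanted kidney does not use that library.

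The transplantation ratios of the genotypes differed past the 2-fold rule in 4 of the 67 genes. The ratio was higher in CD46/TBM for ATP5G1 and ATP5B and lower for COX7A1 and SDHC, where 10.3% of all genes were called higher and 11.5% lower. The median difference over the 67 was 0.20, and it was below 0 in 26, against 50.7% of all genes. With 1 library per group this difference has no replicate check.

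Genes of related pathways were taken from lists drawn up from general knowledge. Some subunits and partners have symbols that fall outside the name rule, and 5 of them, chosen after their values were seen, are given here. USMG5, a small membrane subunit of ATP synthase, had 162, 57.4, 216 and 68.0 scaled CPM (edgeR adjusted p = 0.0592). NDUFAB1, the acyl carrier protein of complex I, had 1163, 451, 920 and 355 counts, and CYCS, cytochrome c, had 2962, 1158, 1415 and 992. ATPIF1, which inhibits ATP synthase when it runs in reverse, had 162, 132, 190 and 90.6 scaled CPM, with ratios of -0.30 and -1.07. UQCC, an assembly factor of complex III, had 33.8, 40.2, 40.0 and 43.4 scaled CPM, with ratios of 0.25 and 0.12. None of the 5 passed the test.

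The 17 citric acid cycle and pyruvate dehydrogenase genes had median ratios of -0.96 (CD39/CD55) and -0.75 (CD46/TBM), close to those of the 67. Of these, 8 were called lower in each genotype, against 13.7% of all genes in CD39/CD55 and 16.3% in CD46/TBM. The call was lower in both genotypes for 5 of the 17, against 7.63% of all genes. In the test over both genotypes 0 of the 17 passed. At an unadjusted p under 0.05 in that edgeR test 8 were lower, against 10.7% of all genes. Assembly factors had smaller ratios, with medians of -0.29 and -0.44 in the 15 measured of 18 listed factors of complex I. For complexes II to V the medians were -0.28 and -0.41, in the 20 measured of 39 listed, so much of that list is not covered. Genes of cristae and cardiolipin had medians of -0.36 and -0.03 (17 measured), and a mixed list had -0.51 and -0.55 (18 measured). The mixed list holds UCP2, 4 SLC25 carriers of adenine nucleotides and phosphate, the VDAC channels, mitochondrial creatine kinases and NNT. It also holds enzymes that feed electrons to ubiquinone by other routes, such as ETFDH. AOX1, an aldehyde oxidase and not a respiratory chain gene, is in the list as well. No gene of these lists passed the test over both genotypes, and the difference of each list from the 67 was not tested.

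The 13 mitochondrially encoded subunits had a median ratio of -1.03 in CD39/CD55, with 8 called lower, against 13.7% of all genes. In CD46/TBM the median was -0.38, with 1 called lower, against 16.3% of all genes. None passed the test. Unlike the nuclear genes, they were higher in CD46/TBM than in CD39/CD55, by a median of 0.79 in untransplanted and 1.44 in transplanted kidney. Of the 13, 6 and 10 were called higher, against 8.16% and 11.0% of all genes. The contrast of these medians with the nuclear ones, -0.39 and -0.36, was not tested.

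The 26 regulators of mitochondrial biogenesis had medians of 0.18 and 0.44 and 0 passed the test. PPARGC1A, the coactivator that drives respiratory chain genes, had 1958, 1863, 2786 and 3691 counts, and its edgeR adjusted p was 0.636. NRF1, a transcription factor for many of these subunits, had 224, 403, 306 and 613 counts, with ratios of 0.995 and 1.29 and an edgeR adjusted p of 0.165. ESRRG, an orphan nuclear receptor that acts with PPARGC1A, had 2449, 4009, 3637 and 5907 counts, with ratios of 0.86 and 0.99 and an edgeR adjusted p of 0.312. In NRF1 and ESRRG both transplanted libraries lay above both untransplanted ones, the opposite order to most of the 67 genes. That upward order held in 11 of the 26 regulators, against 26.3% of all genes. Both transplanted libraries lay below both untransplanted ones in 5 of the 26, against 25.5% of all genes. PPARGC1A, NRF1 and ESRRG were chosen after their values were seen. The 16 hypoxia target genes had medians of -0.48 and 0.19, and 0 passed the test.

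**Figure D5:**
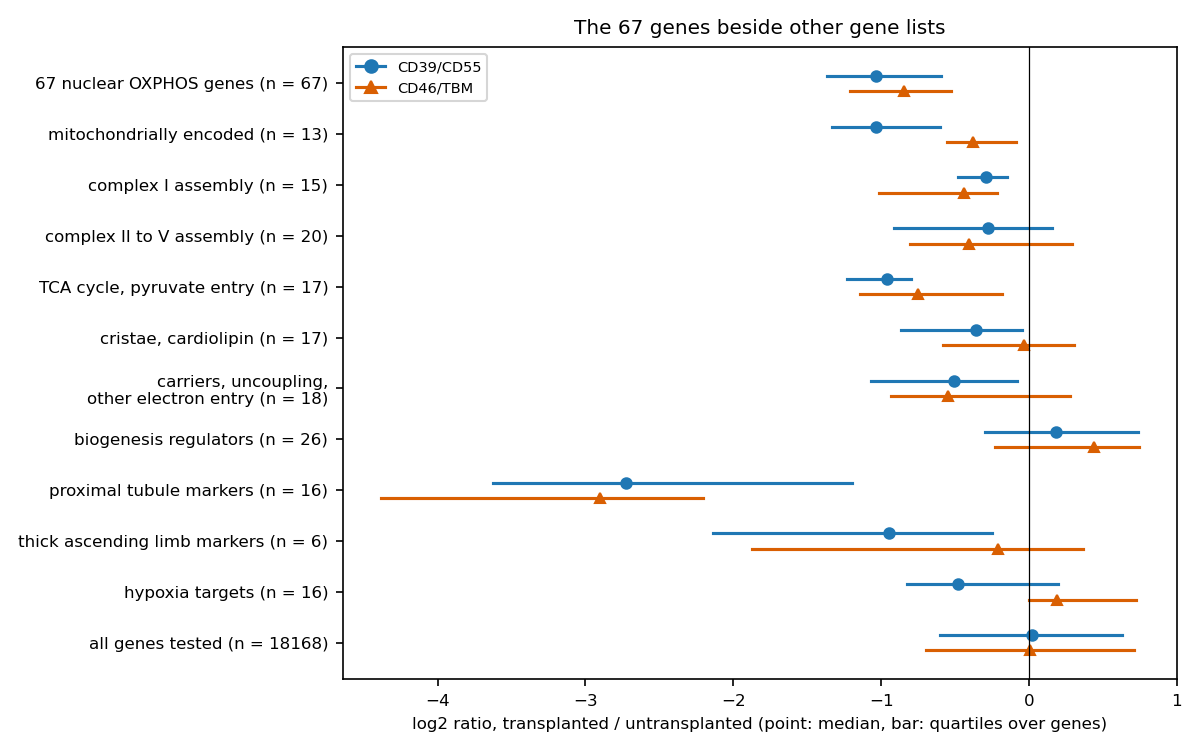
Log2 ratio of transplanted to untransplanted kidney in each genotype for the 67 genes, other gene lists and all genes tested; points are medians and bars run between the quartiles over genes. The citric acid cycle genes (medians -0.96 and -0.75) lie beside the 67, the regulators of biogenesis (0.18 and 0.44) to their right and the proximal tubule markers (-2.73 and -2.90) to their left.

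Markers of tubule cells differed between the states in the same libraries. The 16 proximal tubule markers summed to 14247, 6934, 15431 and 3501 scaled CPM, with median ratios of -2.73 and -2.90, and 11 of them fell in the test over both genotypes. SLC34A1, the phosphate transporter of the proximal tubule, fell by 3.63 ± 0.51 (SE) on the log2 scale (edgeR adjusted p = 0.00313). The 6 measured markers of the thick ascending limb summed to 3739, 803, 1617 and 530.2 scaled CPM, and 1 of them, EGF, fell. UMOD alone made up 3281, 561, 1192 and 214 of these sums. The median ratios of the 6 were -0.95 and -0.21, with 5 below 0 in CD39/CD55 and 3 in CD46/TBM. Of the 8 measured markers of tubule injury, 5 rose, and the list summed to 219.7, 2059.9, 176 and 4880 scaled CPM. Of the 8 measured leukocyte markers 3 fell, of 6 podocyte markers 2, of 5 distal convoluted tubule markers 2 and of 8 endothelial markers 1. Beside these marker counts, 2.71% of all genes fell and 1.24% rose in the same test. Of the pericyte and smooth muscle markers, ABCC9 rose and ACTA2 fell; none of the 9 measured collecting duct or 6 fibroblast markers passed. The part of cell composition in the lower counts of the 67 genes was not tested. All 16 proximal tubule markers were detected in every library except SLC22A6, which had 0 counts in the transplanted CD46/TBM kidney, a count that allows up to 0.29 scaled CPM.

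The 67 genes are spread over 18 chromosomes of the Sscrofa11.1 build, with 11 on chromosome 2. Among neighbours within 150 kb of each other are NDUFS8 and NDUFV1, and NDUFS7 and ATP5D. NDUFS8 (chr2:4863295-4867392) and NDUFV1 (chr2:4958508-4964211) had ratios of -0.63 and -0.04 in CD39/CD55. By RefSeq positions, 21 members overlap another gene and 46 do not. ATP5C1, for example, overlaps the long noncoding LOC110255717, which had 2149, 1189, 1680 and 723 counts. The sources used here do not say whether the counting used strand, so reads of overlapping genes cannot be told apart. The 46 members with no overlap had medians of -1.07 and -0.75, against -0.996 and -0.978 in the 21 with one.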

How the data were processed

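RNA of 4 pig kidneys, 1 library per group, was sequenced. Per the labels' protocols, extraction was by phenol and chloroform and the library kit came from Lexogen; whether it read transcript ends or whole transcripts is not settled. Per the submitters' processing notes, Bowtie2, bedtools and the Sscrofa11.1 build were used; their versions, strand use and the handling of recipient reads are not stated. The authors deposited raw counts per gene with no normalization, 26965 lines and 26466 symbols per library. Lines of 81 repeated symbols, none a member, were summed.

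All genes reaching 10 counts in any library were tested with edgeR 4.0.16 (R 4.3.3), with TMM factors of 0.975, 1.07, 0.957 and 1.00, quasi-likelihood fits with 2 residual degrees of freedom and Benjamini-Hochberg adjustment at 0.05. Genotype or state differs within a side and enters the spread, and nothing says that they came from separate animals. Library pairs were compared by log2 ratios with a prior count of 0.5 and exact 95% conditional binomial intervals (Clopper-Pearson), differences of ratios by Wald counting intervals. Counts were simulated over 18168 genes for transplanted against untransplanted kidney. In them the test recovered 44 of 100 genes changed 2-fold and 100 of 100 changed 8-fold, with 5 false calls. The simulated counts had the same spread setting for every gene and no genotype difference, and only genes with high counts were changed. The recovered share is therefore not the power of the test in these data.

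Members and lists were chosen with earlier results of these data known. Members named with all 4 values passed the test, had the most or least negative change of their complex, differed between genotypes, or belong to succinate dehydrogenase, the catalytic core (for ATP synthase ATP5A1 and ATP5B) or the isoform sets, which include COX6A1 and NDUFA4; others named are marked as chosen after their values were seen. The values of 1 gene under this rule are not reported here. Alternatives were DESeq2 1.42.0 size factors and Wald test, limma 3.58.1 voom, upper-quartile factors, totals without ribosomal and mitochondrially encoded genes, no filter, a block, a prior count of 2, a 1.5-fold rule, summed counts, other member sets and leaving out each library. Gene positions and overlaps are from the RefSeq table of Sscrofa11.1, which held all 67 symbols.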

Additional observations from a re-analysis of the deposited data

Results flagged for a closer look

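The log2 ratio of transplanted to untransplanted kidney had opposite signs in the genotypes in 4 of the 67 genes. The share of all genes with opposite signs was not computed. The ratio was below 0 in both genotypes in 62 of the 67 genes, against 34.5% of all genes. Of all genes, 48.8% were below 0 in CD39/CD55 and 49.6% in CD46/TBM, so opposite signs alone do not set these 4 genes apart. For ATP5G1 it was -1.72 in CD39/CD55 and 0.16 in CD46/TBM. For ATP5G2 it was 0.20 and -0.33, for COX6C 0.34 and -0.31, and for NDUFS4 0.18 and -0.53, in the same order. With 1 library per group, the difference was not tested in any of them.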

How the results depend on the processing

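Of transplanted against untransplanted kidney over both genotypes, the count of members past the threshold was 0, and it was 9 without a filter on low counts, 14 with DESeq2's Wald test, 1 with limma voom, 29 with genotype as a block and 0 to 6 with 1 library left out (6 without transplanted CD39/CD55, 3 without untransplanted CD46/TBM, 1 without transplanted CD46/TBM). Where a library was left out, the lone library of that side is assumed to vary like the others. The median fold change ranged from -1.15 to -0.74 with 1 library left out. Upper-quartile scaling moved the median over all genes from 0.02 to 0.15 in CD39/CD55 and from 0.03 to 0.13 over both genotypes; the median of the 67 in CD39/CD55 was then -0.91, and relative to all genes it was -1.06 under both scalings. The median for genotype, -0.37, was -0.32 with upper-quartile factors, -0.35 with limma voom, -0.33 without members that overlap another gene and -0.41 without ATP5S and ATP5SL (both sets chosen after seeing the data), and ran from -0.97 to 0.15 with 1 library left out; with state as a block 1 member passed. Under a 1.5-fold rule the members called lower were 49 in CD46/TBM (25% of all genes), 27 by genotype in untransplanted kidney (16.9%), with 3 higher (16.4%), 15 in transplanted kidney (20.2%), with 2 higher (19.7%), and 11 in the difference of ratios (19.0%), with 14 higher (18.1%). Without overlapping members, 16 were called lower in CD46/TBM and 0 higher by genotype in untransplanted kidney. Without COX7A1, 0 were lower by genotype in transplanted kidney and 1 in the difference. With 1 library left out, the fold change over both genotypes changed sign in ATP5G1 (range -1.82 to 0.26, the latter without untransplanted CD39/CD55), COX5B (-1.18 to 0.25) and NDUFS7 (-0.97 to 0.17), both positive without that library, NDUFS4 (-0.71 to 0.39 without untransplanted CD46/TBM), ATP5G2 (-0.34 to 0.21 without transplanted CD46/TBM), SDHD (-1.47 to 0.10 without transplanted CD39/CD55) and COX6C (-0.16 without untransplanted and -0.13 without transplanted CD39/CD55, up to 0.21); with upper-quartile factors it changed sign in ATP5G2 (0.060), and without a filter in COX6C (-0.027). The cause was not tested. The other 188 values of counts and medians stayed close to the reported ones. The labels give no replicate numbers; the fit with genotype as a block is the one that sets each transplanted library against the untransplanted library of its genotype.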
